A study of Rattus norvegicus with 16 samples.

Results

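The genes described here encode the extracellular matrix of rat muscle and the proteins that build and cut it. They comprise collagens, basement membrane laminins, adhesive glycoproteins, elastic fibre proteins, collagen-modifying enzymes, matrix metalloproteinases, their tissue inhibitors and 4 cell surface proteins. They were chosen by gene symbol from a list of 45 genes drawn up with earlier results of these data known. Of these, 40 have at least 1 probe set (a group of short probes for 1 transcript) that carries that symbol alone, out of 4737 such genes on the array, and together they have 64 probe sets. Col4a1, Col18a1, Fbn1, Bmp1 and Ccn2 have none and are not analysed here. Each gene is represented by its probe set of highest mean. Of the 40 genes 37 passed the filter on low values, of 4316 genes that did. Ibsp, Mmp10 and Mmp13 did not pass, because fewer than 4 of the 16 arrays lay above the floor that was set under the values.

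The samples are total RNA of rat skeletal muscle hybridised to single-colour oligonucleotide arrays. EOM is extraocular muscle, which turns the eyeball, on 4 arrays with 4 sample numbers. TA_6h is skeletal muscle that the labels call TA, with a collection time of 6 hours, on 8 arrays taken as 4 numbered samples. TA_1h is TA collected at 1 hour, on 4 arrays taken as 2 numbered samples. The labels do not give strain, sex, age or treatment, the event from which the hours count, or a collection time for EOM. They do not say whether a number marks 1 animal or a pool, so a p-value here reflects sample-to-sample spread alone, and that spread may be technical. All 3 markers of extraocular fibres, Myh13, Myh8 and Myh3, were higher in EOM against both TA groups.

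In muscle the matrix surrounds each fibre, each bundle and the whole muscle, and carries force from the fibres to the tendon or, in the orbit, to the eye and its connective tissue pulleys. Fibroblasts secrete fibrillar collagens as procollagens, which are hydroxylated in the cell, trimmed outside it and then cross-linked. Metalloproteinases cut the finished matrix, and the tissue inhibitors of metalloproteinases (the Timp proteins) hold them in check. In bulk tissue, fewer cells of a type and less RNA per cell cannot be told apart.

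Values are deposited intensities on a linear scale, given per numbered sample, with the arrays of a TA number averaged. Intensities under 56.5, the 25th percentile of all values, were raised to that floor before log2 was taken. Differences are on this floored log2 scale with the SE of a limma fit over all 3 groups, and a gene is called where its limma p-value, after Benjamini-Hochberg adjustment across every tested probe set, is under 0.05. EOM columns hold intensities below 0 (24.3% of their values, and 37 of 256 values of the genes described here) while TA columns hold none, so the effect of the muscle and that of the deposited summary step cannot be told apart. On 5 TA arrays (TA_6h 3a, 3b, 4a and 4b and TA_1h 2b) the middle over 3′ ratio of the beta-actin control, a sign of RNA integrity, was 0.146 to 0.390. The remaining 7 TA arrays had ratios of 0.815 to 1.28, and EOM arrays of 0.891 to 0.978. In TA_1h 2, which joins array 2b with 2a, the joined arrays differed most. Over the 37 tested genes the median log2 gap between them was 0.54, against 0.18 to 0.27 for the other TA numbers. Comparisons with TA_1h rest on this sample and on TA_1h 1.

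Of the listed matrix genes more were called higher in EOM than lower. The list was drawn up with earlier results of these data known, so a difference from all genes is no test of matrix genes at large. Against TA_6h, 17 of the 37 tested genes were called higher, where 22.1% of all 4316 tested genes were, and 3 were called lower, where 26.1% of all were. The median difference of the 37 genes was 0.57 on the log2 scale, against -0.10 over all tested genes. Against TA_1h, 18 were called higher and 1 lower, beside 18% and 19.7% of all genes, and the median difference was 0.99 against -0.09. These comparisons share the 4 EOM samples, so the second is no independent repeat of the first. The 16 genes called higher against both TA groups were Col5a2, Col12a1, Fn1, Sparcl1, Spp1, Mgp, Fbln5, Plod2, Pcolce, Mmp2, Mmp3, Mmp14, Timp1, Timp2, Timp3 and Pdgfra. Cd44 was the gene called lower against both. Against TA_6h alone Lamc1 was called higher and Eln and Pdgfrb lower, and against TA_1h alone Col1a1 and Vcan were called higher. On the floored log2 scale every EOM sample lay above all 6 TA samples in 16 of the 40 genes and below them in 1 (Pdgfrb). In the remaining 23 genes the ranges overlapped on that scale. These include Mmp9, Mmp10 and Mmp13, whose EOM samples all lay at the floor. As deposited, the EOM intensities of Mmp9, Mmp10 and Mmp13 were below those of all TA samples. Neither this count nor that of genes called against both TA groups was made over all genes, so no background share is given.

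**Figure D1:**
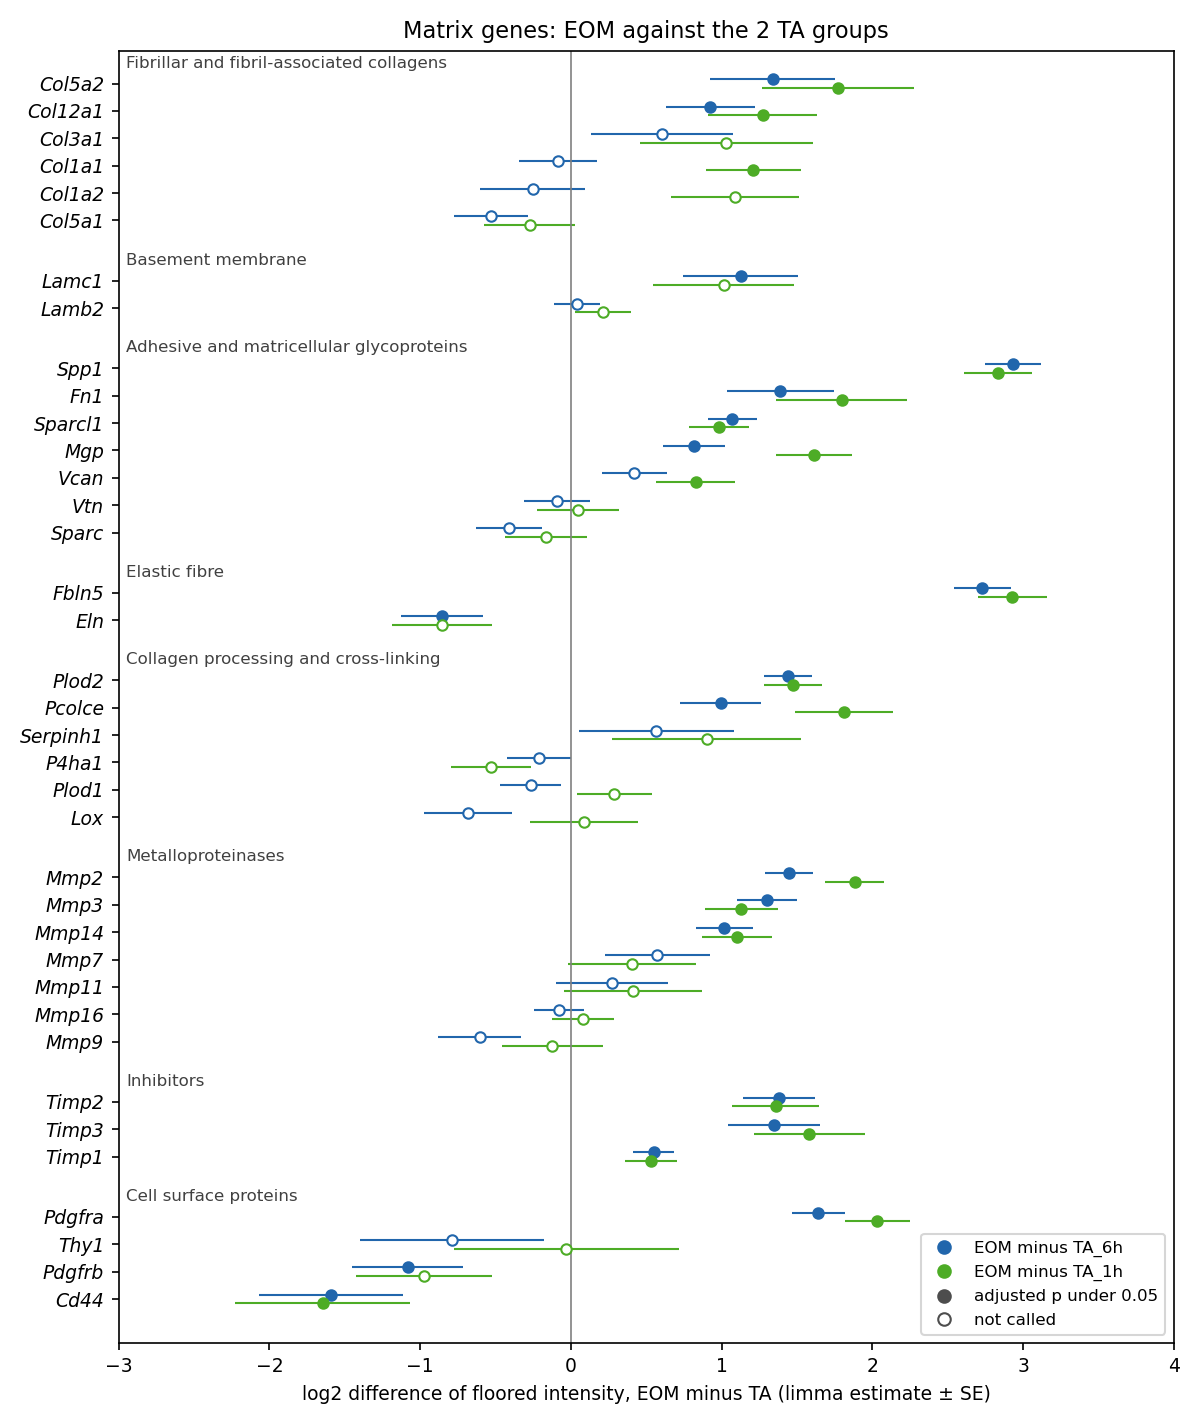
Log2 difference of floored intensity (x axis, limma estimate ± SE) between EOM and TA_6h (blue) and between EOM and TA_1h (green) for the 37 tested genes, grouped by role. Filled points have an adjusted p under 0.05. Spp1 and Fbln5 lie farthest to the right, all 3 Timp genes lie right of 0 with filled points, and Cd44, Pdgfrb and Eln lie left of 0.

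Against TA_6h collagen genes differed gene by gene and not as a block, and against TA_1h most differences were positive. Against TA_6h, 2 of 6 fibrillar and fibril-associated collagens were called higher and none lower, beside 22.1% and 26.1% of all tested genes. An unadjusted limma p under 0.05 was also reached by 2. The genes of type I collagen, the main fibre of tendon and muscle connective tissue, were not called against TA_6h. Against TA_1h 3 of 6 were called higher (Col1a1, Col5a2 and Col12a1) and none lower, beside 18% and 19.7% of all tested genes. An unadjusted limma p under 0.05 was reached there by 4, and 5 of 6 differences were positive. The median difference was 1.15 from TA_1h and 0.26 from TA_6h. Col5a2 encodes a chain of type V collagen, which sits inside type I fibrils and sets their width. It was at 4323, 2333, 3281 and 2844 in the 4 EOM samples, 2241, 2020, 772 and 662 in TA_6h, and 1083 and 814 in TA_1h. All EOM samples lay above all TA samples, although EOM 2 was close to TA_6h 1. The differences were 1.34 ± 0.41 from TA_6h (limma adjusted p = 0.0230) and 1.77 ± 0.51 from TA_1h (0.0203). Its partner chain Col5a1 gave -0.53 ± 0.25 and -0.27 ± 0.30, neither called. Col12a1 encodes a collagen that binds to the outside of fibrils. It was at 433, 339, 415 and 359 in EOM, 294, 251, 219 and 121 in TA_6h, and 164 and 156 in TA_1h, again with no overlap. It was higher by 0.93 ± 0.30 (limma adjusted p = 0.0265) and by 1.27 ± 0.36 (0.0198). Leaving out 1 sample, which also leaves less data for the test, removed some of these calls. Col5a2 lost its call against TA_6h without EOM 1 (1.18), EOM 3 (1.31), TA_6h 3 (1.11) or TA_6h 4 (1.04), and Col12a1 without EOM 1 (0.87) or EOM 3 (0.89). With a batch term for the arrays of low ratio the Col12a1 difference from TA_6h was 0.56 (limma adjusted p = 0.161). Against TA_1h both lost theirs without either TA_1h sample, which leaves 1 TA_1h sample (Col5a2 2.02 and 1.53, Col12a1 1.32 and 1.23).

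For both chains of type I collagen the EOM range overlapped that of TA_6h, and both TA_1h samples lay below all EOM and TA_6h samples. Col1a1, the chain present in 2 copies, was at 22980, 14099, 20150 and 19171 in EOM, 19151, 14467, 18112 and 32224 in TA_6h, and 8294 and 8060 in TA_1h. It differed from TA_6h by -0.09 ± 0.26 (limma adjusted p = 0.799) and from TA_1h by 1.21 ± 0.32 (0.0134), a call lost without TA_1h 1 (1.23) or TA_1h 2 (1.18). Col1a2 was at 9749, 6182, 8885 and 8442 in EOM, 16132, 13690, 4810 and 8599 in TA_6h, and 3777 and 3946 in TA_1h. EOM lay inside the TA_6h range and above both TA_1h samples, and neither difference was called (-0.25 ± 0.35 and 1.09 ± 0.43, limma adjusted p = 0.571 and 0.0707). Col3a1, the type III collagen of loose and repairing tissue, was at 14080, 10954, 12926 and 13000 in EOM, and at 18282, 12818, 5008 and 4154 in TA_6h, and 9404 and 5747 in TA_1h. Here 1 TA_6h sample exceeded all EOM samples and 2 were below all of them, and the differences of 0.60 ± 0.47 from TA_6h and 1.03 ± 0.57 from TA_1h were not called. A second Col3a1 probe set gave 2.05 ± 0.77 (limma adjusted p = 0.0516) and 1.99 ± 0.94 (0.128), also not called.

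**Figure D2:**
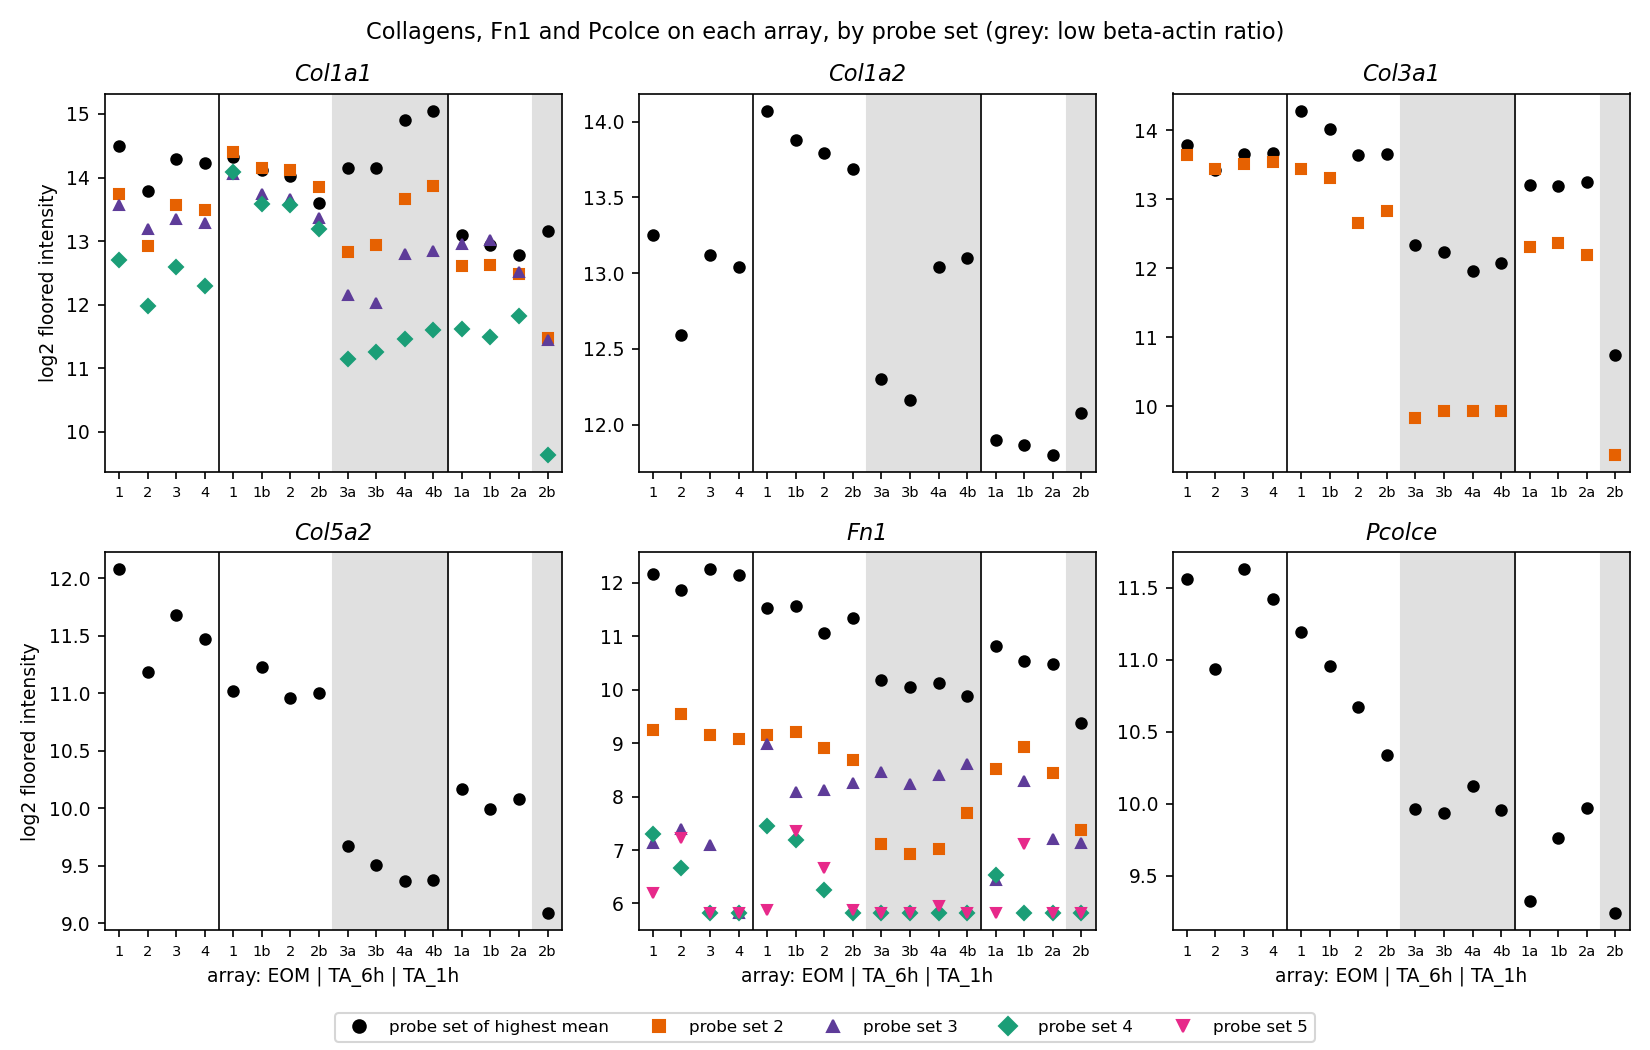
Log2 floored intensity (y axis) on each array (x axis, EOM then TA_6h then TA_1h) for every tested probe set of Col1a1, Col1a2, Col3a1, Col5a2, Fn1 and Pcolce; grey marks the arrays of low beta-actin ratio. On the TA_6h arrays in grey, Col1a2, Col3a1, Col5a2 and Pcolce lie below the other 4 TA_6h arrays, while the Col1a1 probe set of highest mean does not. For Fn1 this holds for the probe set of highest mean and not for every probe set.

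Several matrix genes differed within TA_6h between arrays of low and other beta-actin ratio, in unlike directions. On the 4 TA_6h arrays of low ratio, against the other 4, Col3a1 was lower by 1.75 on the log2 scale (a difference of -1.75), and Serpinh1 (-1.97), Col5a2 (-1.57), Lamc1 (-1.40), Fn1 (-1.31), Cd44 (-1.25) and Col1a2 (-1.21) were also lower. In their probe sets of highest mean, other genes ran the opposite way there. Mmp9 at 1.03, Lox at 0.81, Eln at 0.74 and Mgp at 0.58 had no overlap, and Mmp7 at 0.86 and Col1a1 at 0.55 had overlapping arrays. Over the 37 genes the median of this difference was -0.17, and 40.5% were positive, against 0.08 and 56.1% over all tested genes. Whether RNA integrity moves these genes was not tested. Within TA_6h the arrays of low ratio are also samples 3 and 4. Probe sets of Col1a1 and of Lox parted in the same place. Each other Col1a1 probe set was lower in TA_6h 3 and 4 than in TA_6h 1 and 2. Of the other Lox probe sets, those at 745 and 382 in TA_6h 1 were lower too, at 379 and 183 in TA_6h 3. The last Lox probe set, near the floor, was higher there (77.5 and 155). On array TA_1h 2b the Col1a1 probe set of highest mean read 9109, above its 7012 on array 2a. The second Col1a1 probe set read 2855 there against 5745. Arrays 2a and 2b share a number, with ratios of 0.882 and 0.146. In probe sets of highest mean, Col3a1 read 9773 on 2a and 1720 on 2b. Serpinh1 (1494 and 576), Lamc1 (1672 and 721), Fn1 (1433 and 667), Col5a2 and Cd44 were also lower on 2b, but Col1a2 was higher (3573 and 4319). Lox (222 and 1171) and Mgp (2460 and 7036) were higher on 2b, as were Mmp9, Eln and Mmp7. Without the 5 arrays the difference of Col5a2 from TA_6h was 0.55 (limma adjusted p = 0.101), no longer called, and that of Col12a1 was 0.50 (0.0341). Col1a2 was then called lower (-0.86, 0.0121), as were Col5a1 (-0.82, 0.0363) and Plod1 (-0.51, 0.0191). Col3a1 changed sign with these arrays: its difference from TA_6h was -0.27 (0.260) without them, and with only them as TA it was called higher (1.48, 0.000904).

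Basement membrane genes were represented by 2 laminin chains, which self-assemble into the sheet around each fibre. Lamc1, the gamma 1 chain shared by most laminins, was at 3140, 2993, 3050 and 3197 in EOM, 2607, 2075, 762 and 1004 in TA_6h, and 2136 and 1197 in TA_1h. EOM samples were tightly grouped above all TA samples. The call held against TA_6h (1.13 ± 0.38, limma adjusted p = 0.0339) and not against TA_1h (1.01 ± 0.47, 0.116), and without the arrays of low ratio the first became 0.43 (0.0537). The Lamc1 call was also lost on leaving out any 1 EOM sample (1.11 to 1.14), TA_6h 3 (0.83) or TA_6h 4 (0.96). Lamb2, the beta 2 chain concentrated at neuromuscular synapses, gave 0.04 ± 0.15 and 0.21 ± 0.19 and was not called.

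Among adhesive and matricellular glycoproteins, 4 of 7 were called higher against TA_6h and 5 of 7 against TA_1h, and none was lower. The shares of all tested genes were 22.1% higher and 26.1% lower against TA_6h, and 18% and 19.7% against TA_1h. Spp1 (osteopontin, a secreted phosphoprotein that binds integrins and CD44) had the largest difference of all 37 genes from TA_6h. Its intensities were 827, 708, 565 and 629 in EOM, 95.3, 96.1, 79.8 and 94.2 in TA_6h, and 121 and 77.9 in TA_1h. The lowest EOM sample was well above the highest TA sample. EOM was 7.63-fold above TA_6h (log2 2.93 ± 0.19, limma adjusted p = 1.93e-06) and 7.14-fold above TA_1h (2.84 ± 0.23, 1.56e-05). Without the arrays of low ratio these were 2.85 and 2.85. Fn1 (fibronectin, which bridges collagen and integrins) was at 4602, 3708, 4867 and 4534 in EOM, 3002, 2352, 1104 and 1033 in TA_6h, and 1647 and 1050 in TA_1h. All EOM samples lay above all TA samples. The differences were 1.39 ± 0.35 (limma adjusted p = 0.00954) and 1.80 ± 0.43 (0.00920) for this probe set. The call of Fn1 against TA_1h was lost without TA_1h 2 (1.43), and other probe sets of Fn1 disagreed, as given with the probe sets.

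Sparcl1 (hevin, a secreted anti-adhesive glycoprotein) was at 5007, 4117, 4255 and 4476 in EOM, 2313, 2430, 2070 and 1739 in TA_6h, and 2466 and 2074 in TA_1h. It was about as far above either TA group, by 1.07 ± 0.16 (limma adjusted p = 0.000501) and 0.99 ± 0.20 (0.00364). Its relative Sparc (osteonectin) was at high intensity in all groups, with a mean of 12061 ± 876 (SD, n = 4) for EOM beside 16255 ± 2427 (SD, n = 4) for TA_6h, and was not called (-0.41 ± 0.22). Mgp (matrix Gla protein, an inhibitor of calcification) was at 11722, 12450, 11089 and 12523 in EOM, 6774, 4582, 8531 and 8040 in TA_6h, and 3655 and 4748 in TA_1h. EOM was above all TA samples, and TA_6h samples were above TA_1h 1. The differences were 0.82 ± 0.21 (limma adjusted p = 0.00919) and 1.61 ± 0.25 (0.000854). Vcan (versican, a large proteoglycan) was called against TA_1h (0.83 ± 0.26, 0.0327) and not against TA_6h (0.42 ± 0.22, 0.136). The Vcan call was lost without TA_1h 1 (0.55), EOM 1 (0.72), EOM 3 (0.86) or EOM 4 (0.81). With the floor at the 40th percentile the Vcan difference was 0.07 (0.790), and over all settings its call was lost in 11 of 25. Vtn (vitronectin) gave -0.09 ± 0.22 and 0.05 ± 0.27. Ibsp, the bone sialoprotein, lay under the floor in all 10 samples, at most at 49.1.

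The elastic fibre genes split. Fbln5 (fibulin-5, which organises elastin on microfibrils) was at 2944, 2589, 2904 and 2558 in EOM, 385, 575, 337 and 399 in TA_6h, and 381 and 343 in TA_1h. No TA sample came near the EOM values. EOM was 6.64-fold above TA_6h (2.73 ± 0.19, limma adjusted p = 3.19e-06) and 7.62-fold above TA_1h (2.93 ± 0.23, 1.33e-05), with 2.55 and 2.84 without the arrays of low ratio. Eln, elastin itself, was at 1144, 579, 788 and 839 in EOM, 1064, 1238, 2140 and 1688 in TA_6h, and 1575 and 1378 in TA_1h. EOM 1 lay inside the TA_6h range and the other 3 EOM samples lay below all TA samples. Eln was called lower against TA_6h (-0.85 ± 0.27, limma adjusted p = 0.0256) and not against TA_1h (-0.86 ± 0.33, 0.0677). Without the arrays of low ratio its difference from TA_6h was -0.49 (0.172), and the Eln call was also lost without EOM 2 (-0.69), EOM 3 (-0.84), TA_6h 3 (-0.67) or TA_6h 4 (-0.79).

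Of the 6 tested genes that modify, trim or cross-link collagen, 2 were called higher against each TA group. Of all tested genes 22.1% were called higher against TA_6h and 18% against TA_1h. Plod2 encodes the lysyl hydroxylase of collagen telopeptides, which sets the kind of cross-link. It was at 913, 1129, 938 and 836 in EOM, 358, 381, 304 and 388 in TA_6h, and 352 and 343 in TA_1h. Every EOM sample was above every TA sample, by 1.44 ± 0.16 (limma adjusted p = 5.85e-05) and 1.47 ± 0.19 (0.000276) on average. Plod1, the hydroxylase of the helical domain, was not called (-0.27 ± 0.20 and 0.29 ± 0.25). Pcolce, an enhancer of procollagen C-propeptide removal, was at 3018, 1959, 3167 and 2742 in EOM, 2164, 1462, 990 and 1056 in TA_6h, and 756 and 804 in TA_1h. EOM 2 lay below TA_6h 1, and the other samples of these groups did not overlap. The differences were 0.99 ± 0.27 (limma adjusted p = 0.0122) and 1.81 ± 0.33 (0.00194), and the first was 0.60 (0.107) without the arrays of low ratio. The collagen chaperone Serpinh1 (0.57 ± 0.51 and 0.90 ± 0.63), the prolyl hydroxylase subunit P4ha1 (-0.21 ± 0.21 and -0.53 ± 0.26) and lysyl oxidase, Lox, in its probe set of highest mean (-0.68 ± 0.29 and 0.09 ± 0.36), were not called.

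**Figure D3:**
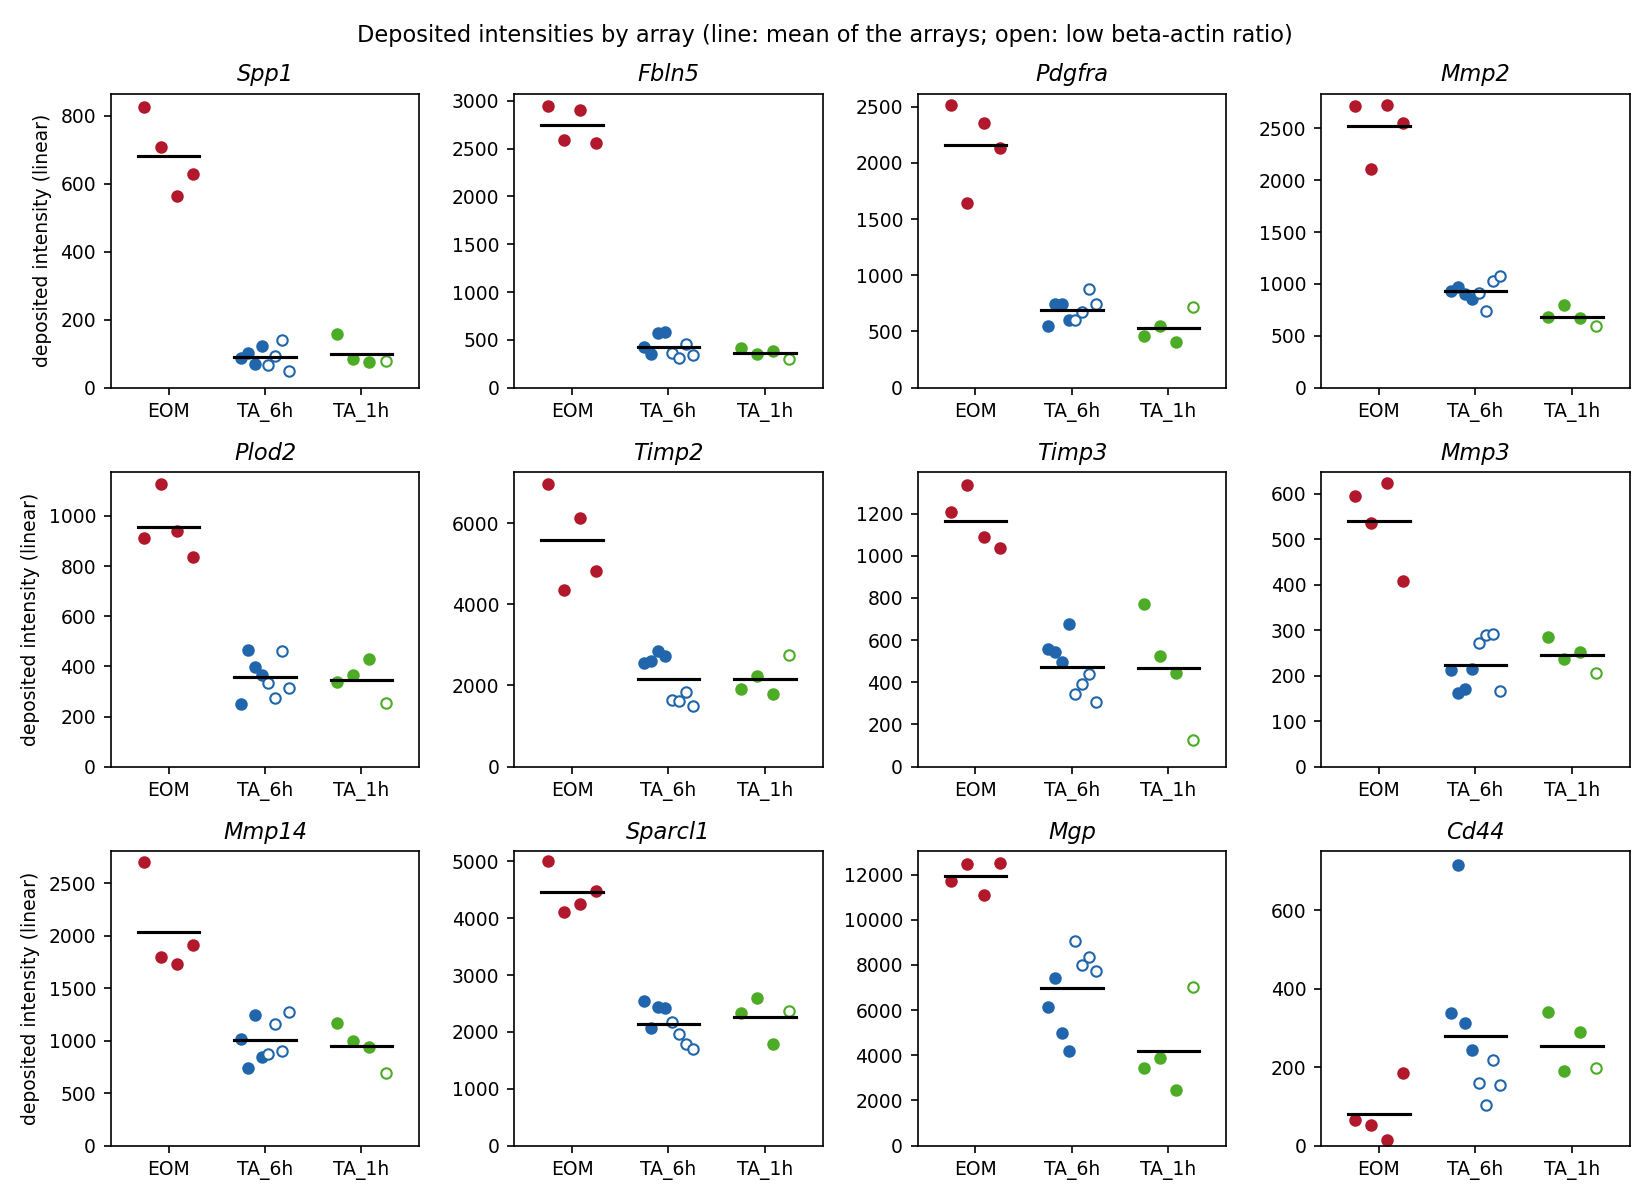
Deposited intensity (y axis, linear, from 0) on each array for 12 genes, by group; horizontal lines are means over arrays and open points are arrays of low beta-actin ratio. In the first 11 panels every EOM array lies above every TA array; in Cd44 the EOM arrays lie low, with EOM 4 at 186 inside the TA range.

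Of the metalloproteinases, 3 of 7 tested were called higher in EOM against both TA groups and none was lower. Against TA_6h 22.1% of all tested genes were called higher, and against TA_1h 18% were. The share of all genes called against both was not counted. Mmp2 (gelatinase A, which cuts denatured and basement membrane collagen) was at 2715, 2110, 2729 and 2549 in EOM, 950, 875, 828 and 1055 in TA_6h, and 737 and 632 in TA_1h. EOM was 2.73-fold above TA_6h (1.45 ± 0.16, limma adjusted p = 6.00e-05) and 3.69-fold above TA_1h (1.88 ± 0.19, 6.77e-05). Mmp14, the membrane-anchored enzyme that activates pro-Mmp2 at the cell surface with Timp2 as adaptor, was at 2699, 1798, 1730 and 1914 in EOM, 880, 1044, 1013 and 1082 in TA_6h, and 1084 and 814 in TA_1h. It was higher by 1.02 ± 0.19 (0.00167) and 1.10 ± 0.23 (0.00447). Mmp3 (stromelysin-1, which cuts proteoglycans and fibronectin) was at 595, 536, 623 and 408 in EOM, 188, 193, 281 and 228 in TA_6h, and 261 and 230 in TA_1h. It was higher by 1.30 ± 0.20 (limma adjusted p = 0.000495) and 1.13 ± 0.24 (0.00487). In all 3 genes the groups did not overlap, and the calls held without the arrays of low ratio. The call of Mmp14 against TA_1h was lost without TA_1h 2 (0.89).

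The remaining metalloproteinases were not called. Mmp7 (matrilysin) was at 369 to 459 in EOM and 137 to 439 in TA_6h, with a difference of 0.57 ± 0.35 (limma adjusted p = 0.199). Mmp11 (stromelysin-3) gave 0.27 ± 0.37. Mmp16, anchored in the membrane like Mmp14, was above the floor on 1 EOM and 3 TA_6h arrays. Mmp9 (gelatinase B, typical of white blood cells) was below 0 in all 4 EOM samples and at 35.2 to 148 in TA_6h. Its difference of -0.61 ± 0.27 (limma adjusted p = 0.0943) was not called, and is set by the floor, since every EOM value of Mmp9 lay there. It was called lower with the floor at the 10th percentile (-2.43, limma adjusted p = 0.000705), with log2 of the value plus 50 (-1.40, 0.000753) and with only the arrays of low ratio as TA (-1.12, 0.00110), and was -0.09 without those arrays. Mmp10 and Mmp13 lay below 0 in all EOM samples and at most at 122 and 47.9 in TA samples.

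Mmp3, Mmp7, Mmp10 and Mmp13 lie on rat chromosome 8, and their promoters are shown because the same letters stand before all 4 starts, although Mmp3 was called, Mmp7 was not, and Mmp10 and Mmp13 were too low to test. The RefSeq promoter table of build GRCr8 holds 26 of the 40 genes. The 100 bases from 120 to 21 bases before each annotated start, on the plus strand, read as follows, with capitals marking matches to TATAAA, the core promoter box, and to TGANTCA, the letters that AP-1 factors bind, each searched on both strands.
Mmp3, chr8:12925161-12925260: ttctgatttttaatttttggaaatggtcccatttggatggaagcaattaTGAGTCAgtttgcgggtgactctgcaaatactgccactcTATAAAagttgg
Mmp7, chr8:13132923-13133022: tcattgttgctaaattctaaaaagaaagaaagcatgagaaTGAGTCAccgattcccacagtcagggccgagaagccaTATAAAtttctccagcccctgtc
Mmp10, chr8:12974587-12974686: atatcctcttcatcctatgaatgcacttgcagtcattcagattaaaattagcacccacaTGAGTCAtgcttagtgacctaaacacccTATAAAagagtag
Mmp13, chr8:12782709-12782808: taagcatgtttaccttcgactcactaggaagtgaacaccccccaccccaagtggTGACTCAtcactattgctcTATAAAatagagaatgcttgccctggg
In each of the 4 the AP-1 letters begin 61 to 80 bases before the start and the TATA letters 32 to 47 bases before it. Both occur together in this window in 0.232% of the 3872 promoters of genes on the array and in 0.24% of all 27457. The 4 genes were picked for these letters, so the shares are a description and no test. No other of the 26 genes has both, and Pdgfra has the AP-1 letters alone. A match of letters is a description of the sequence, and binding was not measured.

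All 3 inhibitors were called higher in EOM against both TA groups, beside 22.1% of all tested genes against TA_6h and 18% against TA_1h. Timp1 was at 1336, 1241, 1311 and 1331 in EOM, 982, 783, 949 and 922 in TA_6h, and 917 and 890 in TA_1h. The EOM samples were close together and above all TA samples, by 0.55 ± 0.14 (limma adjusted p = 0.00911) and 0.53 ± 0.17 (0.0326). After quantile normalization neither was called (0.30 and 0.28), and the Timp1 call against TA_1h was lost without EOM 1 (0.52), EOM 3 (0.53), EOM 4 (0.52), TA_1h 1 (0.56) or TA_1h 2 (0.51). Timp2, which both inhibits Mmp2 and brings it to Mmp14, was at 6974, 4357, 6132 and 4830 in EOM, 2587, 2790, 1625 and 1667 in TA_6h, and 2068 and 2266 in TA_1h. It was higher by 1.38 ± 0.24 (limma adjusted p = 0.00105) and 1.36 ± 0.29 (0.00493). Timp3, the inhibitor that stays bound to the matrix, was at 1207, 1335, 1091 and 1036 in EOM, 552, 588, 370 and 373 in TA_6h, and 648 and 286 in TA_1h. It was higher by 1.35 ± 0.30 (0.00482) and 1.58 ± 0.37 (0.00783), the last call of Timp3 being lost without TA_1h 2 (0.87). Without the arrays of low ratio Timp2 (1.03) and Timp3 (1.04) kept their calls against TA_6h. Mmp2, Mmp14 and Timp2, which act together at the cell surface, were thus all higher in EOM.

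**Figure D4:**
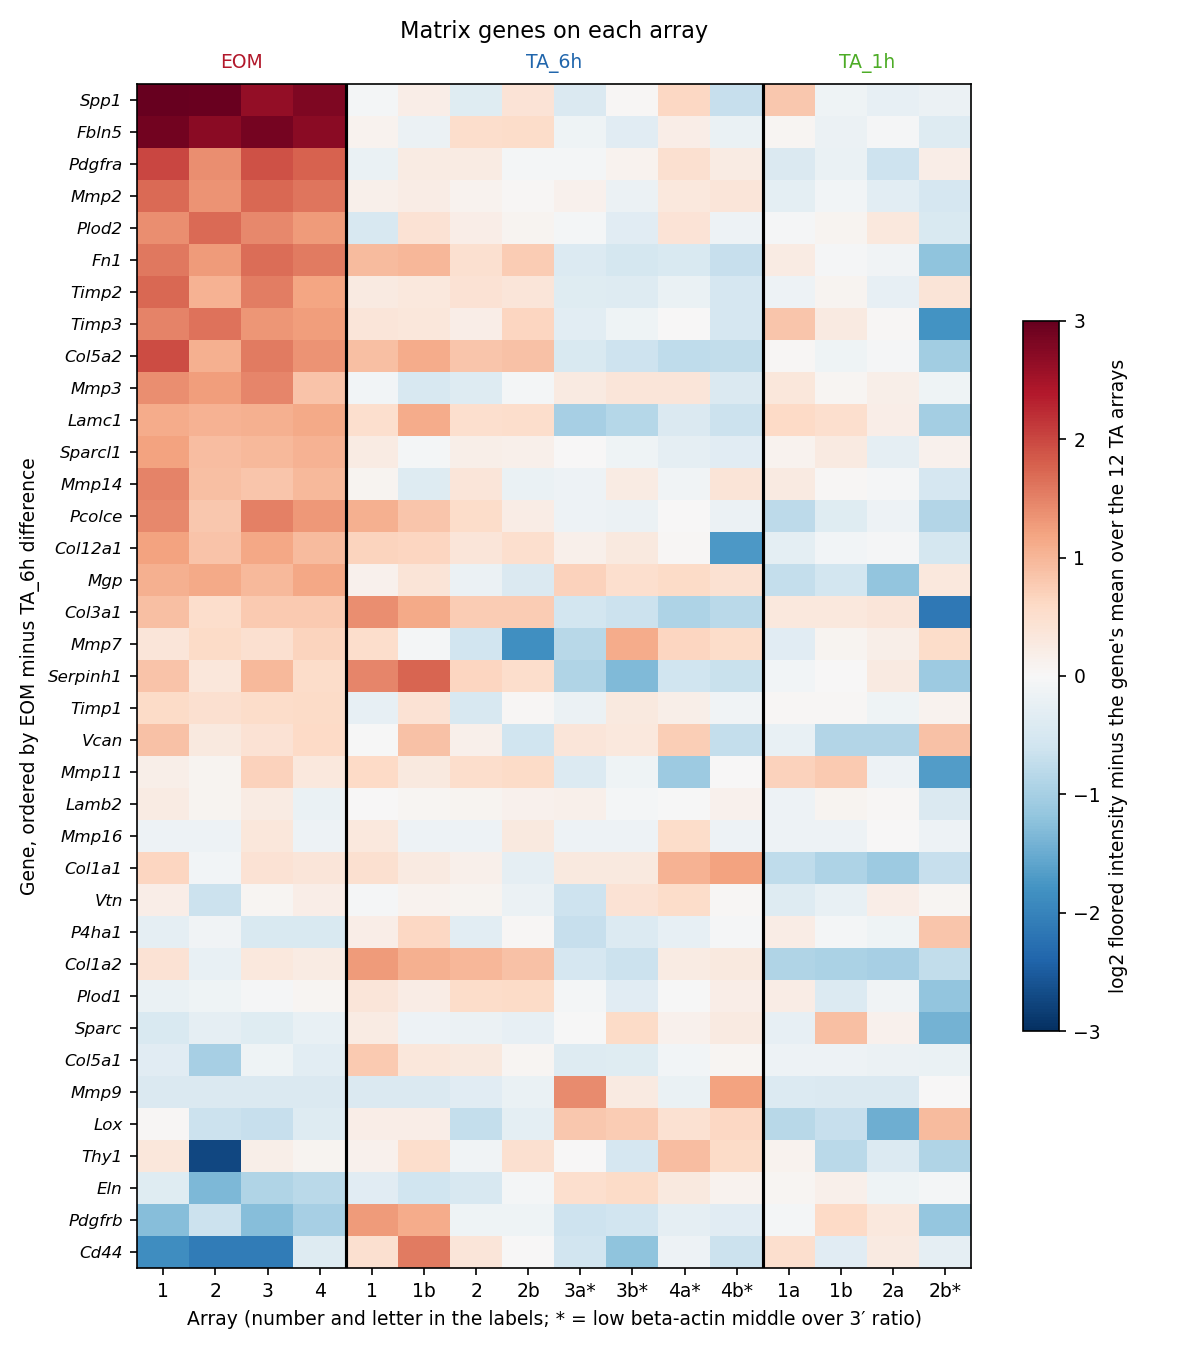
Log2 floored intensity of each tested gene on each array, minus the gene's mean over the 12 TA arrays (red above, blue below); columns are arrays in the groups EOM, TA_6h and TA_1h, and an asterisk marks a low beta-actin ratio. The upper 16 rows are red on all 4 EOM arrays, and Fn1, Col5a2, Lamc1, Col3a1 and Serpinh1 change from red to blue within TA_6h at array 3a.

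The cell surface proteins separated both receptors of platelet-derived growth factor. Pdgfra, typical of fibroblasts and their interstitial progenitors, was at 2513, 1647, 2354 and 2133 in EOM, 645, 675, 636 and 810 in TA_6h, and 505 and 563 in TA_1h. EOM was 3.12-fold above TA_6h (1.64 ± 0.18, limma adjusted p = 5.19e-05) and 4.10-fold above TA_1h (2.03 ± 0.22, 8.06e-05). Pdgfrb, typical of pericytes and vessel walls, was at -55.9, 87.3, -8.56 and 68.6 in EOM, 311, 124, 90.0 and 111 in TA_6h, and 169 and 116 in TA_1h. Its EOM samples were all below its TA samples, but 2 of the 4 EOM arrays were under the floor. It was called lower against TA_6h (-1.08 ± 0.37, 0.0349) and not against TA_1h (-0.98 ± 0.45, 0.119). The Pdgfrb call was lost without EOM 1 (-1.01), EOM 3 (-1.01), EOM 4 (-1.10) or TA_6h 2 (-1.14). The size of the Pdgfrb difference depended on the floor, with -2.09 for a floor at the 10th percentile and -0.30 (0.355) at the 40th. Its call was also lost after quantile normalization (-0.81), with no filter (-1.08) and with only the arrays of low ratio as TA (-0.60). Cd44, the hyaluronan receptor that also binds Spp1, was at 66.0, 53.9, 15.0 and 186 in EOM, 527, 278, 132 and 187 in TA_6h, and 266 and 244 in TA_1h. EOM 4 reached the TA range, and 2 of 4 EOM arrays were under the floor. It was called lower against both (-1.59 ± 0.47, limma adjusted p = 0.0198, and -1.65 ± 0.58, 0.0489). The other tested Cd44 probe set, with all EOM arrays under the floor, was not called (-0.78 ± 0.31 and -0.23 ± 0.38). With the floor at the 40th percentile neither call of Cd44 held (-0.76 and -0.76). Over all settings the Cd44 call against TA_1h was lost in 15 of 25. These include the floor at the 10th percentile (-2.14), quantile normalization (-1.30), no filter (-1.65) and the mean of all probe sets of Cd44 (-0.94). The Cd44 call against TA_6h was lost without EOM 2 (-1.43) or EOM 3 (-1.43). Its call against TA_1h was lost without any 1 of EOM 1, 2 and 3, TA_1h 1 and 2, and TA_6h 2 and 4 (-1.69 to -1.48). The fibroblast and nerve antigen Thy1 was at 470, 422 and 395 in EOM 1, 3 and 4 and at -514 in EOM 2, and was not called (-0.79 ± 0.61). The low calls of Pdgfrb and Cd44 thus rest in part on EOM values under the floor. Those of Pdgfrb were below 0, the range in which the 2 muscles' columns were deposited differently. In the Cd44 probe set of highest mean no EOM value was below 0.

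Of the 37 genes none was called between TA_6h and TA_1h, where 0% of all tested genes were called higher and 0% lower by limma. At an unadjusted p under 0.05 there were 5 genes, against 250 of all 4316. These were Col1a1 (1.30 ± 0.32, limma adjusted p = 0.514), Col1a2 (1.34 ± 0.43), Mgp (0.80 ± 0.25), Pcolce (0.82 ± 0.33) and Mmp2 (0.44 ± 0.19), all higher in TA_6h. In each of the 5 all 4 TA_6h samples lay above both TA_1h samples, except Mgp, where TA_6h 2 (4582) was below TA_1h 2 (4748) on the mean of intensities. TA_1h 2 is the mean of arrays that read Mgp at 2460 (2a) and 7036 (2b, of low ratio). Differences were positive in 27 of the 37 genes (73%, median 0.23), against 52.8% of all genes (median 0.02). The outcome depended on how the arrays of low ratio were treated. Without them, Col1a2 was called higher in TA_6h (2.01 ± 0.23, limma adjusted p = 0.0182), where 0.348% of all genes were called higher. With a batch term for these arrays and each array as a sample, which counts repeat arrays of a number as independent and so gives p-values that are too small, 6 were called higher, where 0.556% of all genes were. These were Col1a1 (1.18), Col1a2 (1.55), Col3a1 (0.91), Col5a2 (0.79), Fn1 (0.73) and Pcolce (0.99). With the numbered sample added as a random block, which was chosen after the data were seen, Col1a1 (1.18 ± 0.22, 0.0422) and Col1a2 (1.53 ± 0.27, 0.0342) were called, where 0.162% of all genes were. With only the arrays of low ratio as TA, a setting also chosen after the data were seen and in which TA_1h is 1 array, 4 were higher (Col3a1, Sparc, Plod1 and Timp3) and 1 lower (P4ha1), beside 4.96% and 3.94% of all genes.

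Of the 40 genes 11 have more than 1 tested probe set, and in some these differed in direction. Fn1 has 5 tested probe sets. Besides the one used above, another gave 1.16 ± 0.46 (limma adjusted p = 0.0617) and one more was called lower against TA_6h (-1.53 ± 0.31, 0.00279). That last probe set was at 140, 169, 137 and -54.0 in EOM and 390, 291, 326 and 365 in TA_6h. EOM lay below TA_6h there, at intensities far under those of the first probe set, and the remaining pair was near the floor. Averaged over all 5, Fn1 was not called (0.26 from TA_6h and 0.57 from TA_1h). Fn1 is spliced in several ways, and the exons covered by each probe set were not looked at here. Lox has 4. The probe set of highest mean was not called, while another was at 720, 558, 534 and 675 in EOM, 382, 272, 183 and 171 in TA_6h, and 234 and 130 in TA_1h. These groups did not overlap, and it was called higher against both (1.39 ± 0.30, limma adjusted p = 0.00374, and 1.85 ± 0.36, 0.00305). A further Lox probe set was called against TA_1h only (1.59 ± 0.33). For Lox the direction therefore depends on the probe set. One of 4 Sparc probe sets was called lower against TA_6h (-0.80 ± 0.21, limma adjusted p = 0.0107) and not against TA_1h (-0.08 ± 0.25). Another Sparc probe set gave 0.83 ± 0.65 from TA_6h, not called. Differences from TA_6h also had both signs, none called, in Col1a1 (-0.30 to 0.27), Lamb2 (-0.25 and 0.04) and Thy1 (-0.79 and 0.47). Both probe sets of Mmp2 (1.45 and 0.84) and of Timp1 (0.55 and 1.86) were called higher against TA_6h. A second tested Pdgfra probe set, at about 131 to 228 in TA_6h and 106 to 193 in EOM, gave -0.09 ± 0.24.

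**Figure D5:**
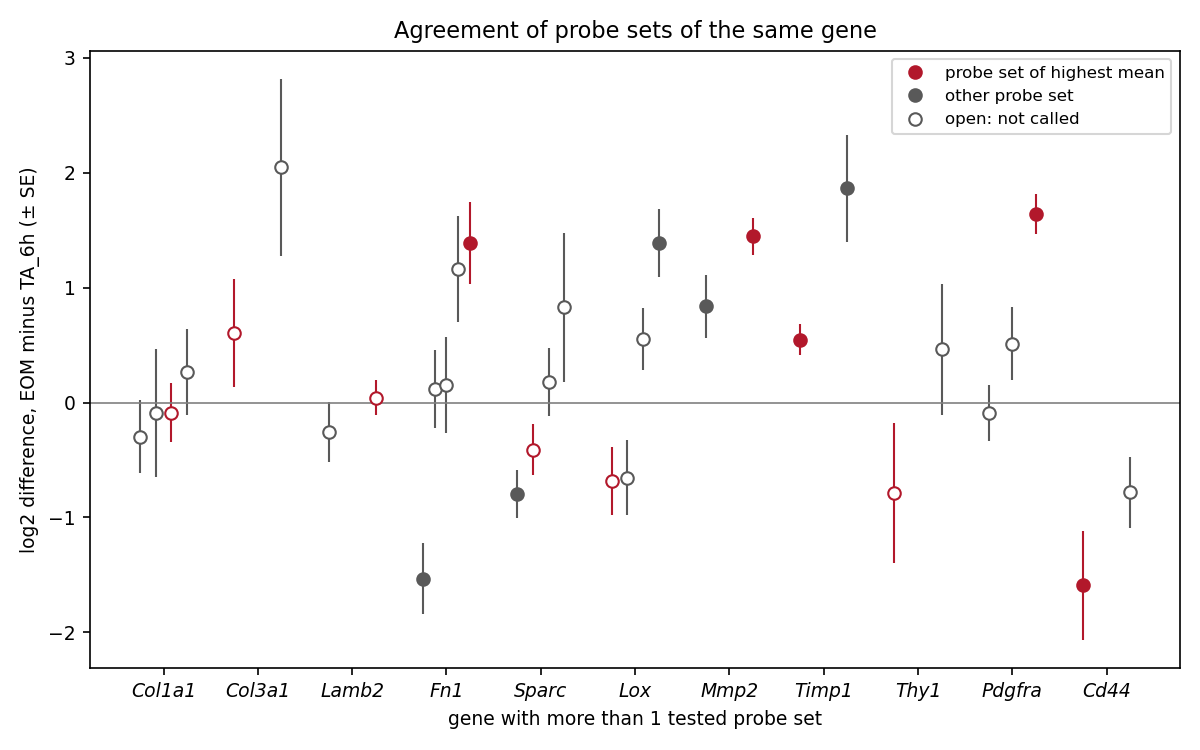
Log2 difference between EOM and TA_6h (y axis, ± SE) of each tested probe set of the 11 genes with more than 1; red marks the probe set of highest mean and filled points have an adjusted p under 0.05. Fn1, Lox, Sparc, Col1a1, Lamb2, Thy1 and Pdgfra hold probe sets on both sides of 0, whereas both of Mmp2 and both of Timp1 lie above it.

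Related genes outside the list were called in both directions against TA_6h, where 22.1% of all tested genes were called higher and 26.1% lower. The shares among the other collagens and the matrix receptors were near these. Of 8 other collagens tested, 2 were higher against TA_6h and 2 lower, namely Col8a1 (1.39 ± 0.25) and Col15a1 (0.93 ± 0.25), and Col4a3 (-0.99 ± 0.32) and Col9a1 (-0.88 ± 0.26), the last with all EOM arrays under the floor. Of 13 matrix receptors 4 were higher and 4 lower: the laminin receptor subunit Itgb4 was at 3.05 ± 0.33, the syndecan Sdc2 at 2.17 ± 0.48, the collagen receptor kinase Ddr1 at -1.88 ± 0.26 and the syndecan Sdc3 at -1.51 ± 0.23, the last with all EOM arrays under the floor. Of 14 genes of the TGF-beta pathway, a main inducer of matrix genes, 5 were higher and 2 lower. Ltbp1, which stores latent TGF-beta in the matrix, was higher by 2.30 ± 0.17, and so were the activin subunit Inhba (1.32 ± 0.17) and the co-receptor Tgfbr3 (1.31 ± 0.27). Tgfb1 itself was lower (-1.95 ± 0.34), with all 4 EOM arrays under the floor. Of 12 genes of the plasminogen system and other proteases 4 were higher and 3 lower, with the membrane protease Mme at 1.88 ± 0.29, the plasminogen activator Plat at 1.70 ± 0.19, the protease inhibitor Serpina1 at -2.29 ± 0.36 and the urokinase receptor Plaur at -2.12 ± 0.24, the last again with EOM under the floor. Of 19 other matrix glycoproteins 6 were higher and 4 lower, and the fibril-binding proteoglycans Lum (4.42 ± 0.26) and Omd (2.82 ± 0.22), the fibulin Efemp1 (3.12 ± 0.48) and Bcan (2.58 ± 0.46) had the largest differences. All these differences were called by limma.

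Markers of some other cell types also differed between EOM and TA_6h. Of 4 macrophage markers tested 3 were higher against both TA groups (all but Csf1r), and their summed intensity was 7964 to 11200 on EOM arrays and 1200 to 2307 on TA_6h arrays. All 4 Schwann cell markers were higher, with sums of 8719 to 13020 against 1716 to 2655. Macrophages are known to make Spp1 and Fn1, and the part of macrophages and Schwann cells in the differences of the matrix genes was not tested. Of 4 cartilage and bone markers tested none was higher and 2 were lower against TA_6h, Bglap and Comp, and Acan lay at the floor on every array. Against TA_6h, 7 markers of smooth muscle and of pericytes held 2 called higher and 4 called lower, and of 6 endothelial markers 1 was higher and 1 lower, beside the same 22.1% and 26.1% of all tested genes. Of 5 adipocyte markers Cidea (3.90) and Fabp4 (1.04) were higher and Lep (-0.56) was lower.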

How the data were processed

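The authors deposited one intensity per probe set and array, on a linear scale, for 8799 probe sets on 16 arrays. How probes were summarised is not stated in the labels or file headers. Trimmed means without the outer 2% of values lay between 799.962 and 800.001 on all arrays, so no further scaling was applied. Intensities were floored at the 25th percentile (56.5) and log2 was taken. Arrays of a group and number were averaged. The arrays labelled 1 and 2 with no letter in TA_6h were joined with 1b and 2b, which is an inference. Testing used limma (version 3.58.1, under R 4.3.3) with lmFit and eBayes on 7640 probe sets that exceeded the floor on 4 or more arrays, after 59 controls were dropped (1 fit of all 3 groups, 7 residual and 2.83 prior degrees of freedom). Calls are at a Benjamini-Hochberg adjusted p under 0.05. The platform annotation in GEO names genes: 1 symbol for 7018 probe sets, several for 308 and none listed for 1473. The number of arrays limits precision. Figures were drawn with matplotlib 3.10.9.

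Named genes are all members on the array, and from each related list up to 4 called genes of largest difference from TA_6h. Values per sample are given for members called in the same direction against both TA groups and members called between TA groups. Of the members whose probe sets disagree in direction, they are given for probe sets of Fn1 and Lox, but not for Sparc, Lamb2 or all of Thy1. Type I and III collagens, Lamc1, Eln and Pdgfrb were added after their values were seen. The members and the lists were chosen with earlier results of these data known. Alternatives changed the floor, the scaling, the filter, the unit of replication, the probe set rule and the handling of TA arrays whose beta-actin ratio was low (under 0.5), and left out each sample in turn.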

Additional observations from a re-analysis of the deposited data

Results flagged for a closer look

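In groups of 4 samples, 3 of 80 groups of member genes held a sample far from the other 3 by Dixon's criterion; chance gives about 1 in 20. Spp1 was at 79.8 in TA_6h 3, below the 94.2 to 96.1 of the other TA_6h samples, a gap that is small beside its difference from EOM. Thy1 was at -514 in EOM 2, against 395 to 470 in the other EOM samples. Pdgfrb was at 311 in TA_6h 1, against 90.0 to 124 in the other TA_6h samples.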

How the results depend on the processing

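Over 26 alternatives, 11 of the 20 members called against TA_6h (Sparcl1, Spp1, Mgp, Fbln5, Plod2, Mmp2, Mmp3, Mmp14, Timp2, Timp3 and Pdgfra) and 10 of the 19 called against TA_1h (the same but with Pcolce in place of Mmp14 and Timp3) were called in every alternative in which they were tested. The count of members called higher against TA_6h stayed within 1.5 times of 17 throughout. The count called lower against TA_6h, 3, was 6 with the floor at the 10th percentile, 1 with it at the 40th, 1 when all 16 arrays had to exceed the floor, 5 without the arrays of low ratio, and 5 with a batch term for them, alone or with a random block. The count lower against TA_1h, 1, was 2 with the floor at the 10th percentile, after quantile normalization, with each array as a sample, with a random block for the numbered sample and with only the arrays of low ratio as TA. It was 0 with the floor at the 40th percentile, with no filter, when all 16 arrays had to exceed the floor, with the number as a replicate block and with the mean of all probe sets. It was 4 without the arrays of low ratio, and 3 with the batch term, alone or with the random block. Between the TA groups the count, 0, was 1 higher (1 in all) without these arrays, 6 higher (6 in all) with the batch term, 2 higher (2 in all) with the random block added, and 4 higher and 1 lower (5 in all) with these arrays alone. Leaving out 1 sample gave 0 to 4 lower against TA_6h, 11 to 19 higher, 0 to 2 lower and 11 to 21 in all against TA_1h. The lowest counts against TA_1h, 11 higher and 11 in all, came without TA_1h replicate 2. Directions reversed against TA_1h with only the arrays of low ratio as TA, where TA_1h is 1 array: Sparc 1.10, Vcan -0.33 and Lox -1.36. The causes were not tested. Correlations of deviations between same-number samples ran from -0.418 to 0.389 over 8 pairs. Both ends are pairs of TA_1h with TA_6h, and the 2 TA_1h samples deviate as exact mirror images. Between EOM and TA_6h the same-number values were 0.105, 0.0206, 0.0324 and 0.0713, each the highest of that EOM sample with TA_6h. The main fit did not use the numbers as pairs. With the number as a replicate block, Vcan (0.83), Timp1 (0.50) and Cd44 (-1.52) lost their calls against TA_1h. Quantile normalization moved the median difference of all tested probe sets from TA_6h from -0.106 to 0.0303, and no called member changed direction under it.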
